A study of Mus musculus with 7 samples.

Results

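The mu class of cytosolic glutathione transferases was followed in hepatocytes, the metabolic cells of the liver, taken from wild-type mice and from mice in which both enzymes that start haem synthesis were targeted. The study asks how these enzymes act together in hepatocytes. Its members here were the genes of the deposited table whose symbol begins with Gstm and a digit. They were 8 of the 12151 genes listed: Gstm1, Gstm2, Gstm3, Gstm4, Gstm5, Gstm6, Gstm7 and Gstm2-ps1, a processed pseudogene, that is, a messenger RNA copied back into the genome. All 8 reached 1 CPM (read counts scaled to a common library size) in at least 3 libraries and so entered the fit, as did 12105 genes in all. The family was selected on its measured values in these libraries, since results of the same contrast were known when it was proposed. Its differences between the groups are therefore given as a description, with no p. Calls of members, which rest on an adjusted p under 0.05, belong to that description and are no test of the family.

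There were 3 wild-type (WT) libraries, for which the treatment label reads "non", and 4 ALAS1/2-KO libraries, for which it reads "tamoxifen", the drug that switches on inducible forms of the Cre recombinase. In the ALAS1/2-KO mice, Cre removes exons 4 and 5 of a conditional Alas1 allele, and Alas2 was lowered by injection of small interfering RNAs joined to GalNAc, a sugar that hepatocytes take up. Alas1 and Alas2 encode the aminolevulinate synthases, which catalyse the entry step of haem synthesis. Genotype, tamoxifen and the interfering RNA come together in one group and cannot be told apart. The sources used here do not give the Cre driver, the strain, sex or age, a control injection in WT, or whether each library is a separate mouse, so the spread between libraries may be technical.

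Glutathione transferases join the tripeptide glutathione to reactive, fat-soluble molecules, which makes them soluble and marks them for export. The mu class is one of several classes of these enzymes, and its subunits work as dimers, of like or unlike mu subunits. In rodent liver the class is known for taking up epoxides, quinones and products of lipid peroxidation, and several of its genes are known to respond to drugs and to electrophiles through the receptors CAR and PXR and the factor NRF2. CAR and PXR are nuclear receptors that sense foreign compounds, and NRF2 is the main transcription factor of the response to electrophiles. Many of the drug-metabolising enzymes that these receptors induce are cytochromes P450, which carry haem.

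In the whole table, 617 genes passed an adjusted p of 0.05 (limma on the deposited log2 CPM, Benjamini-Hochberg over all genes), 5.1% of those tested, 352 higher and 265 lower in ALAS1/2-KO. The listed reads came to 22916097 to 34048680 in WT and 27933939 to 30195635 in ALAS1/2-KO. Mitochondrial genes took 31.9% to 43.2% of the reads in WT and 16.8% to 27.3% in ALAS1/2-KO. Alas2 fell from 11.3 ± 5.18 CPM (SD, n = 3) to 0.44 ± 0.26 CPM (SD, n = 4), a log2 fold change of -4.51 with an SE of 0.46 (adjusted p = 0.0027, limma). Values after ± are SDs over the 3 WT or the 4 ALAS1/2-KO libraries throughout. Alas1 was at 209 ± 109 CPM in WT and at 322 ± 31.7 CPM in ALAS1/2-KO and did not pass the test. A value over the whole Alas1 gene does not measure the loss of 2 exons, so it checks nothing. The deposited scaling bears on every level below: with CPM rescaled to the listed reads, the median log2 fold change of all genes moved from -0.02 to 0.32, and each gene moved up by a like amount. The share of higher calls was 57.05% as deposited, 92.61% after that rescaling and 42.35% with scaling that left out mitochondrial genes and the 20 most abundant ones.

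A count of the markers of other liver cells, 56 genes in all, gave 1965 to 2559 CPM in the 3 WT libraries. It gave 492 and 1309 CPM in ALAS1/2-KO replicates 1 and 2, and 2594 and 2237 CPM in replicates 3 and 4. On this pooled sum, ALAS1/2-KO replicates 1 and 2 were below the rest. Kupffer cell and myeloid markers gave 1139 to 1532 CPM of it in WT. The sums of bile duct markers and of lymphoid and erythroid markers were below WT in every ALAS1/2-KO library. Leaving out replicates 1 and 2 therefore does not level all markers of other cells. Values of the members without these 2 libraries are given below. In bulk RNA, fewer cells of a type and less RNA per cell cannot be told apart. Hepatocyte markers were present throughout: the 17 listed summed to 135184 to 143176 CPM in WT and 92063 to 103096 CPM in ALAS1/2-KO, where the most abundant, Alb (albumin), was at 53409 ± 2537 CPM against 97897 ± 3431 CPM, a log2 fold change of -0.87 that quantile normalization turned to 0.28. The markers did not fall as a set: 10 of the 17 had positive and 7 negative log2 fold changes, with a median of 0.10. Only Alb was called.

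All 7 intact genes lie in a tandem cluster of 149.074 kb on chromosome 3 of the mm10 build, with Gstm5 on the plus strand and the other 6 on the minus strand. From low to high coordinate the order is Gstm5 (chr3:107895821-107898686), Gstm7 (chr3:107926334-107931817), Gstm6 (chr3:107938847-107943749), Gstm3 (chr3:107963696-107969283), Gstm2 (chr3:107981702-107986453), Gstm1 (chr3:108012255-108017973) and Gstm4 (chr3:108040408-108044894). The gaps between neighbours run from 7029 to 27647 bases. The representative transcript of each has 8 exons and encodes 218 residues, or 224 for Gstm5, in the GENCODE M21 annotation. Gstm2-ps1 lies elsewhere, as a single exon of 657 bases on the minus strand (chr5:116632908-116633564).

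The members are close relatives, which matters for the reads. Between pairs of encoded proteins, identity ran from 61.0% for Gstm3 and Gstm5 to 84.4% for Gstm1 and Gstm3, and it was 79.8% for Gstm1 and Gstm2. The pseudogene carries the name of Gstm2, yet its 657 bases match the representative transcript of Gstm1 at 643 positions, 97.87%, and that of Gstm2 at 557 positions, 84.78%. At the 92 positions where the coding sequences of Gstm1 and Gstm2 differ, Gstm2-ps1 has the Gstm1 base at 89 and the Gstm2 base at 3. The stretch of 60 coding bases below, in the last exon of the intact genes, lets the 3 main sequences be told apart by eye. It was chosen as a stretch aligned without gaps that holds the most differences between Gstm1 and Gstm2. It is written on the coding strand, and capitals mark the bases that differ from Gstm1.
Gstm1: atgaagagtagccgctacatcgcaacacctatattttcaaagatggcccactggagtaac
Gstm2: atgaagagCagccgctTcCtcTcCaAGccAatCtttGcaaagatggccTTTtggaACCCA
Gstm3: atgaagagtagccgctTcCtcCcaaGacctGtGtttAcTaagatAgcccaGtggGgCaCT
Gstm2-ps1: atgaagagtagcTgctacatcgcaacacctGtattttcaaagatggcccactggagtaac
These lie at chr3:108012695-108012754, chr3:107982055-107982114, chr3:107964213-107964272 and chr5:116632914-116632973, all on the minus strand. Over this stretch Gstm2 differs from Gstm1 at 18 bases, Gstm3 at 14 and Gstm2-ps1 at 2. The pseudogene has the Gstm1 base at all 18 positions where Gstm1 and Gstm2 differ.

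How far a short read can place itself differs between members. Of the 50-base windows of its representative transcript, Gstm2-ps1 shares 40.5% with another member, 215 of 608 with Gstm1, 139 with Gstm3 and 0 with Gstm2. The same share is 19.5% for Gstm1, 18.3% for Gstm3, 6.88% for Gstm6 and 1.08% for Gstm2. Counting every other annotated transcript, pseudogenes outside the family included, the share is 46.9% for Gstm2-ps1, 28.8% for Gstm3, 23.2% for Gstm1, 11.8% for Gstm6 and 9.36% for Gstm2. The representative transcripts of Gstm4 and Gstm7 share no 50-base window with any other annotated transcript. Shorter reads were not tested. Gstm5 shares none with a member, but 14.4% of its windows lie in 4933431E20Rik, an antisense transcript that overlaps its start. The sources used here give neither the read length nor the counter nor the use of strand. The values of the 6 members with shared windows, Gstm1, Gstm2, Gstm3, Gstm5, Gstm6 and Gstm2-ps1, remain uncertain to that extent.

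Against this background, 4 of the 8 members were called higher in ALAS1/2-KO and 0 lower, and 5 of 8 did not overlap between the groups, in each case with the ALAS1/2-KO libraries higher. Of all genes tested, 2.91% were called higher, 22.7% did not overlap between the groups and 11.3% did not overlap and were higher. Over the members the median log2 fold change was 0.48, with 7 positive and 1 negative. Nothing is read from these shares, because the family was selected on this contrast.

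**Figure D1:**
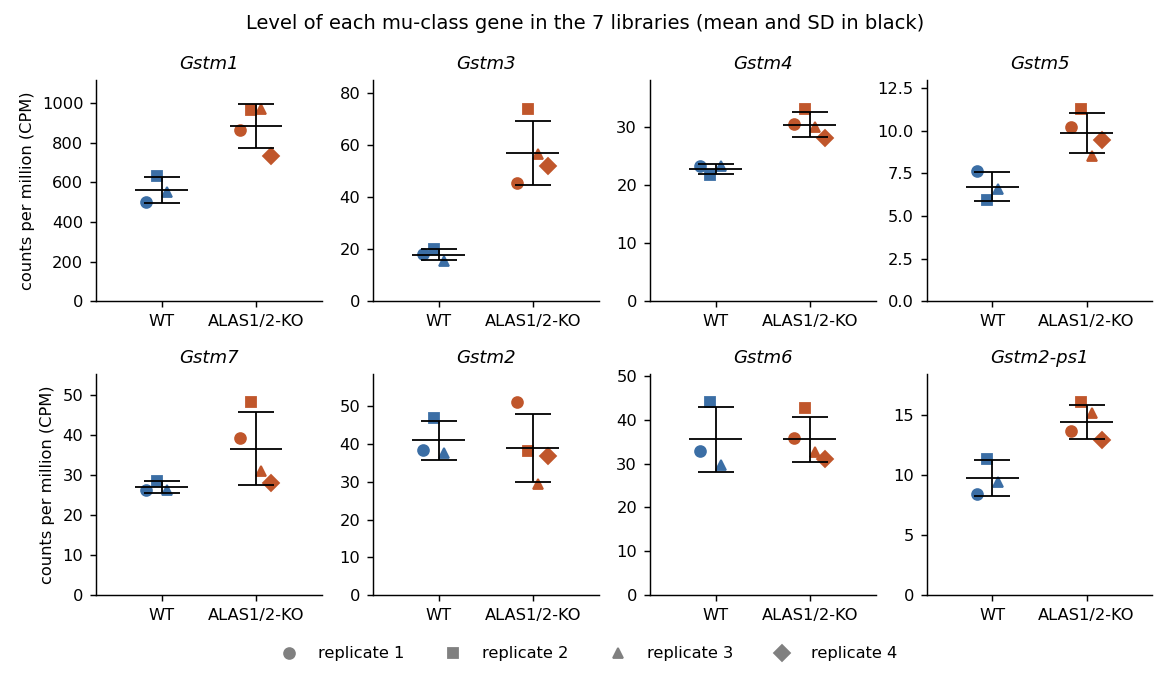
Level of each mu-class gene in CPM (vertical axes, linear and starting at 0, a scale of its own for each gene) in the 3 WT libraries (blue) and the 4 ALAS1/2-KO libraries (orange). Symbols give the replicate number, the wide black line the group mean and the bars 1 SD; Gstm3 sits at 15.7 to 20.005 CPM in WT and 45.4 to 74.2 CPM in ALAS1/2-KO, while Gstm2 and Gstm6 overlap.

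Gstm3, known in mouse liver as one of the transferases that drug-like compounds induce, differed most. It was at 18.2, 20.005 and 15.7 CPM in WT replicates 1 to 3 and at 45.4, 74.2, 56.7 and 52.3 CPM in ALAS1/2-KO replicates 1 to 4. The lowest ALAS1/2-KO library was above the highest WT library, and replicate 2 of ALAS1/2-KO was the highest of all. The means were 18.0 ± 2.16 CPM (SD, n = 3) and 57.1 ± 12.3 CPM (SD, n = 4). The fold was 3.14, a log2 fold change of 1.65 with an SE of 0.17. From 348 to 2410 reads stood behind each value. Gstm3 stayed called with each of the 7 libraries left out in turn, where its log2 fold change ran from 1.52 to 1.75. It was 1.60 without ALAS1/2-KO replicates 1 and 2. Such fits, here and for the members below, reuse the values on which the family was selected and give no independent support.

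Gstm1 carries most of the mu-class messenger RNA of these cells. It was at 501, 631 and 551 CPM in WT and at 866, 967, 973 and 733 CPM in ALAS1/2-KO. The groups did not overlap, with ALAS1/2-KO replicate 4 nearest to WT. The means were 561 ± 65.1 CPM and 885 ± 112 CPM, a fold of 1.57 and a log2 fold change of 0.65 with an SE of 0.14. In CPM this was the largest shift of the family, although the fold was about that of Gstm2-ps1 and below that of Gstm3. Its call held in 2 of the 7 fits that left out a library, those without ALAS1/2-KO replicate 1 or 4. Its log2 fold change ran from 0.58 to 0.74 over the 7 fits and was 0.60, not called, without ALAS1/2-KO replicates 1 and 2.

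Gstm4, which shares no 50-base window with another transcript, was at 23.4, 21.9 and 23.3 CPM in WT and 30.6, 33.2, 30.0 and 28.1 CPM in ALAS1/2-KO. The groups did not overlap, and WT libraries lay within 2 CPM of each other. The log2 fold change was 0.41 with an SE of 0.09, a fold of 1.33. It was called with all libraries and in 0 of the 7 fits that left out one, and was at 0.34, not called, without ALAS1/2-KO replicates 1 and 2.

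Gstm5, the member most distant in sequence, was the lowest. It was at 7.62, 5.95 and 6.59 CPM in WT and 10.2, 11.3, 8.53 and 9.43 CPM in ALAS1/2-KO, from 146 to 367 reads a library. Every ALAS1/2-KO library was above every WT library. The log2 fold change was 0.55 with an SE of 0.14, close to that of Gstm2-ps1, and it was not called. Without ALAS1/2-KO replicates 1 and 2 it was 0.42. The antisense transcript 4933431E20Rik, whose reads cannot be told from those of the start of Gstm5 without strand, was at 2.45 ± 1.32 CPM in WT and at 6.07 ± 2.01 CPM in ALAS1/2-KO, with a log2 fold change of 1.35 and an adjusted p of 0.0808 (limma). Its part in the Gstm5 value was not tested.

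Gstm7 was at 26.3, 28.7 and 26.3 CPM in WT and 39.3, 48.3, 31.2 and 28.0 CPM in ALAS1/2-KO. Its groups overlapped, because ALAS1/2-KO replicate 4 lay below WT replicate 2. The log2 fold change was 0.41 with an SE of 0.18, not called. Without ALAS1/2-KO replicates 1 and 2, the libraries with the lowest pooled sum of other-cell markers, it was 0.13.

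Gstm2 and Gstm6 had nearly equal group means, and the groups of each overlapped. Gstm2 was at 38.4, 47.1 and 37.7 CPM in WT and 51.1, 38.2, 29.5 and 36.8 CPM in ALAS1/2-KO, so both the highest and the lowest of the 7 libraries were ALAS1/2-KO. Its log2 fold change was -0.10 with an SE of 0.18. Gstm6 was at 32.9, 44.0 and 29.7 CPM in WT and 35.9, 42.6, 32.6 and 31.1 CPM in ALAS1/2-KO, a log2 fold change of 0.01 with an SE of 0.16. Without ALAS1/2-KO replicates 1 and 2 the values were -0.31 for Gstm2 and -0.14 for Gstm6. Neither sign is settled by these data, since rescaling to the listed reads turned Gstm2 to 0.24 and moved Gstm6 to 0.34.

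The pseudogene Gstm2-ps1 was at 8.40, 11.4 and 9.43 CPM in WT and 13.6, 16.0, 15.2 and 12.9 CPM in ALAS1/2-KO. The groups did not overlap, and the log2 fold change of 0.57, SE 0.14, was near that of Gstm1. It was called with all libraries and in 0 of 7 fits that left out one, and stood at 0.53, not called, without ALAS1/2-KO replicates 1 and 2. Its level followed Gstm1 more closely than Gstm2, the gene it is named for. Per 100 CPM of Gstm1 there were 1.68 to 1.80 CPM of the pseudogene in WT and 1.56 to 1.76 in ALAS1/2-KO. Per 100 CPM of Gstm2 there were 21.9 to 25.0 in WT and 26.7 to 51.5 in ALAS1/2-KO. Over the 7 libraries the Pearson r of log2 CPM was 0.98 with Gstm1 and -0.15 with Gstm2, and after removal of the group means it was 0.92 and 0.07. With Gstm3 it was 0.93, and 0.63 after that removal. With Gstm6 it was 0.37, and 0.76 after that removal. These are descriptions over 7 libraries that share their scaling. The pseudogene is 97.87% identical to Gstm1 over its whole length and shares 50-base windows with Gstm1 and Gstm3. Reads of Gstm1 or Gstm3 placed on the pseudogene and reads of the pseudogene itself therefore cannot be told apart here.

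**Figure D2:**
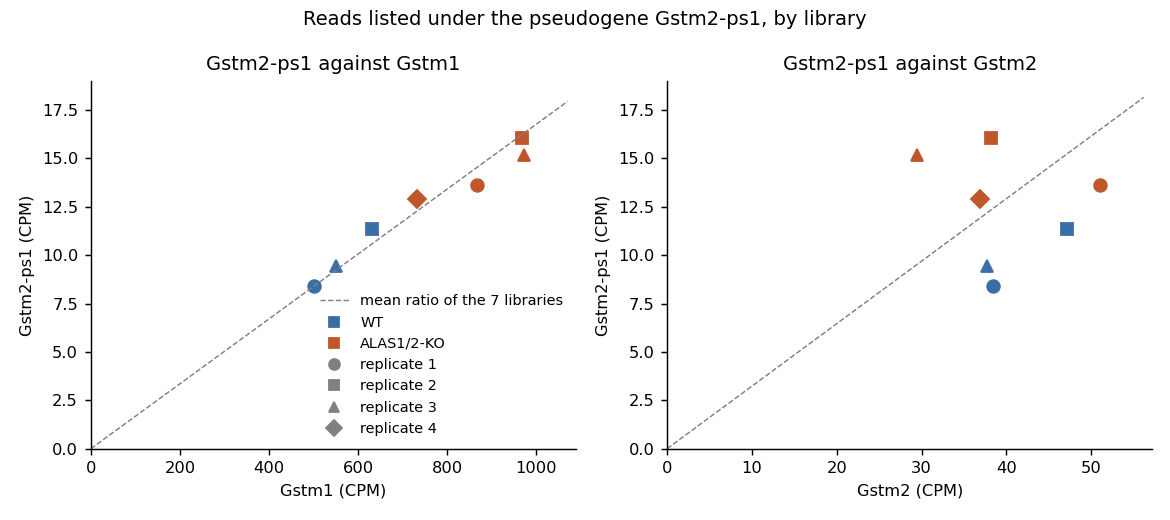
CPM of Gstm2-ps1 (vertical axes) against CPM of Gstm1 (left) and of Gstm2 (right), 1 point a library, WT in blue and ALAS1/2-KO in orange, symbols by replicate number. The dashed line is the mean ratio of the 7 libraries; the points lie along it for Gstm1 (r of log2 CPM 0.98) and scatter for Gstm2 (r -0.15).

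Summed over its 8 members, the family stood at 722 ± 78.8 CPM in WT (range 657 to 809) and 1108 ± 131 CPM in ALAS1/2-KO (range 932 to 1231), a ratio of 1.53. The groups did not overlap. How reads were divided among members does not change this sum, but reads shared with genes outside the family, or dropped for fitting several genes, can. Without Gstm1 the sum was 161 ± 15.9 CPM against 223 ± 29.7 CPM.

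Gstm1 made up 77.7% ± 1.21 of the family sum in WT and 79.8% ± 1.95 in ALAS1/2-KO, so its dominance was similar. The shares of 3 other members did not overlap between the groups. Gstm3 held 2.24% to 2.77% in WT and 4.16% to 6.02% in ALAS1/2-KO. Gstm2 held 5.38% to 5.85% in WT and 2.50% to 4.67% in ALAS1/2-KO, and Gstm6 4.24% to 5.43% and 2.77% to 3.46%. The other 4 overlapped: Gstm4 held 2.70% to 3.56% and 2.55% to 3.02%, Gstm7 3.55% to 4.00% and 2.65% to 3.92%, Gstm2-ps1 1.28% to 1.40% and 1.25% to 1.39%, and Gstm5 0.74% to 1.16% and 0.72% to 1.01%. For every 100 CPM of Gstm1, Gstm3 gave 2.85 to 3.62 CPM in WT and 5.25 to 7.67 CPM in ALAS1/2-KO. Shares and ratios within a library do not move with the library scaling. The shares of a library sum to 100%, so a share can fall because others rose. In CPM, Gstm2 and Gstm6 overlapped between the groups, with log2 fold changes of -0.10 and 0.01.

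Set against all 24 glutathione transferase genes in the table, the mu class took 15.7% ± 1.25 of their summed CPM in WT (14.2% to 16.6%) and 23.7% ± 2.38 in ALAS1/2-KO (21.5% to 26.1%). The total over the 24 genes was nearly level, at 4607 ± 381 CPM and 4675 ± 310 CPM. The 16 genes of other classes summed to 3525 to 4178 CPM in WT and 3329 to 3916 CPM in ALAS1/2-KO, ranges that overlap.

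**Figure D3:**
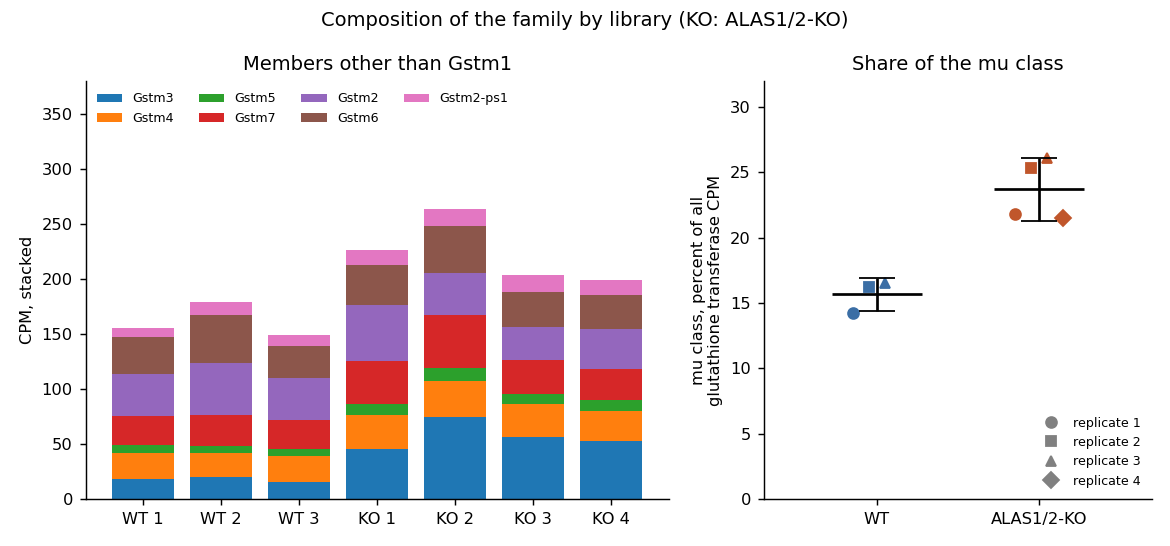
Left, stacked CPM of the members other than Gstm1 in each library (bars from 0, KO standing for ALAS1/2-KO); the Gstm3 block grows from 15.7 to 20.005 CPM in WT to 45.4 to 74.2 CPM in ALAS1/2-KO. Right, percent of the CPM of all 24 glutathione transferase genes that fell to the mu class, with symbols by replicate, the mean and 1 SD: 14.2% to 16.6% in WT and 21.5% to 26.1% in ALAS1/2-KO.

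To compare levels between genes, CPM was divided by the kilobases of annotated exon. On this scale Gstm1 was far above the rest in both groups, at 381 ± 44.2 CPM per kb in WT and 601 ± 76.3 in ALAS1/2-KO. In WT it was followed by Gstm2 at 24.4, Gstm6 at 17.9, Gstm7 at 16.9, Gstm2-ps1 at 14.8, Gstm3 at 13.7, Gstm4 at 13.4 and Gstm5 at 5.26 CPM per kb. From Gstm6 down to Gstm4, each overlapped its neighbour in this order, so their order is not fixed by these libraries. In ALAS1/2-KO, Gstm3 took rank 2, at 43.6 ± 9.35 CPM per kb with a range of 34.7 to 56.6, where in WT it had rank 6. Gstm2 came next at 23.2 ± 5.35 CPM per kb with a range of 17.55 to 30.4, below every Gstm3 value. Then came Gstm7 at 22.9, Gstm2-ps1 at 22.0, Gstm6 and Gstm4 at 17.9 each and Gstm5 at 7.72 CPM per kb. With the length of the representative transcript in place of all exons, Gstm3 kept rank 2 in ALAS1/2-KO, but its range then overlapped that of Gstm2, 27.7 to 48.0 CPM per kb.

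Position in the cluster did not order the differences. Gstm3, with a log2 fold change of 1.65, lies between Gstm6 and Gstm2, which had the smallest. Within 300 kb of the cluster 38 other genes are annotated, of which 16 code for proteins and 11 were tested. Of these 11, 1 was called: Amigo1, which encodes an adhesion protein, fell from 6.97 ± 1.01 CPM to 3.70 ± 0.76 CPM, a log2 fold change of -0.91 with an adjusted p of 0.0387 (limma). Its adjusted p was 0.0709 to 0.156 without any 1 of the WT libraries or ALAS1/2-KO replicate 2 or 4, and 0.0507 without ALAS1/2-KO replicates 1 and 2. Ampd2, an AMP deaminase, is the tested gene outside the family that lies nearest to Gstm4. It was at 18.7 ± 1.20 CPM in WT and at 24.5 ± 1.28 CPM in ALAS1/2-KO, a log2 fold change of 0.39 with an adjusted p of 0.0511 (limma). Apart from Amigo1, Ampd2 and the antisense transcript at Gstm5, the neighbours within 250 kb were Ahcyl1 at 0.25, Csf1 at -0.10, Gnai3 at -0.13, Cyb561d1 at -0.04, Atxn7l2 at -0.24, Psma5 at -0.22 and Sort1 at -0.69 on the log2 scale, none of them called.

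**Figure D4:**
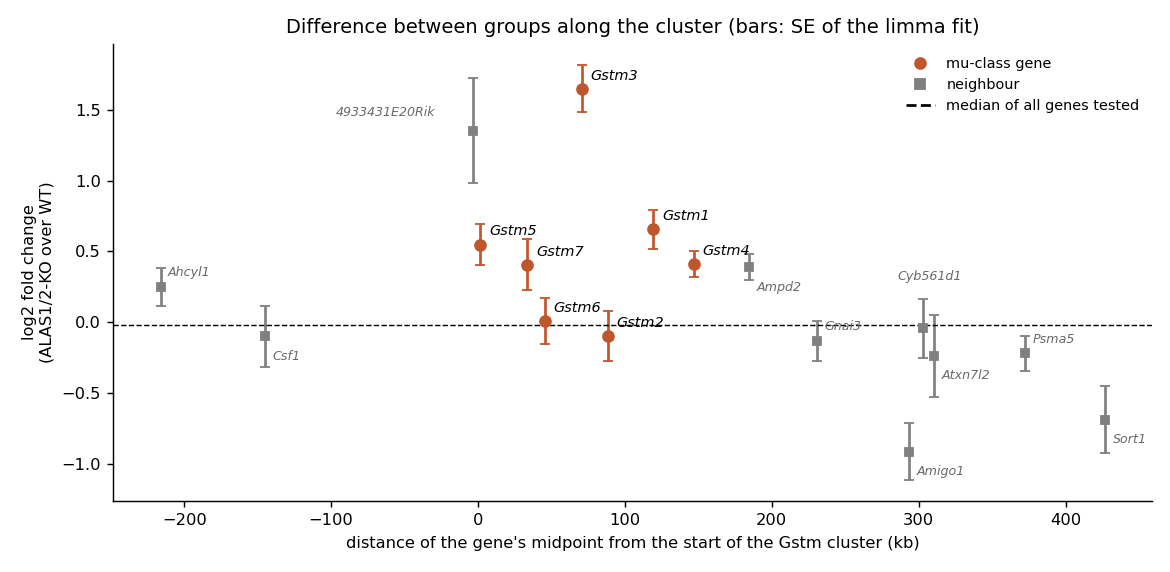
Log2 fold change of ALAS1/2-KO over WT (vertical axis, with the SE of the limma fit as bars) against distance from the start of the cluster in kb (horizontal axis), for the 7 mu-class genes of the cluster (orange circles) and the 10 tested neighbours within 250 kb (grey squares). The dashed line marks the median of all genes, -0.02; Gstm3 stands at 1.65 between Gstm6 at 0.01 and Gstm2 at -0.10.

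Promoters were read for known core motifs as a description of the sequence, since several members differed together. RefSeq (GRCm38.p6) gave 12 windows, from 250 bases before to 50 after the start, for the 7 intact genes. The core of the antioxidant response element, to which NRF2 binds, was searched as TGACNNNGC and the nuclear receptor half-sites as AGGTCA and AGTTCA, on both strands. The reverse complement of AGGTCA starts with the TGAC of the first motif, so these can overlap, though none of the matches found here did. Of 32851 such windows of all genes, 12.39% hold the first, 16.26% the second and 13.99% the third. TGACNNNGC was found at Gstm5, as TGACCACGC at position -42 from the start, and in 1 of the 2 windows of Gstm7, at -129. AGGTCA was found in 1 of the 2 windows of Gstm1, at -5, and AGTTCA at Gstm5, at -97. The windows of Gstm2, Gstm3, Gstm4 and Gstm6 held none of the 3. A match is no evidence of binding, and the absence of one says only that these letters are not in this window.

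The enzymes around the mu class were followed in lists whose members were taken from textbook pathways. The lists were chosen with earlier results of these data known, so their counts are a description. Among the other glutathione transferases, 0 of 16 tested rose and 1 fell, with a median log2 fold change of -0.02, equal to that of all genes. The 1 was Gsta2, an alpha-class subunit, which fell from 2.35 ± 0.49 CPM to 0.36 ± 0.22 CPM (log2 fold change -2.67, adjusted p = 0.0302, limma). Its adjusted p was 0.0538 to 0.119 without any 1 of the WT libraries or without ALAS1/2-KO replicate 4, and Gsta2 has near-identical alpha-class copies, so its value is uncertain. Named after their values were seen, the abundant Mgst1, a membrane-bound transferase, was at 2260 ± 166 CPM in WT and at 1843 ± 216 CPM in ALAS1/2-KO, and Gsta3 at 448 ± 74.5 CPM and 558 ± 45.1 CPM, neither of them called.

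Glutathione supply, the making and recycling of glutathione, gave 2 genes that rose and 3 that fell of 18, with a median of -0.07. G6pdx, the enzyme that opens the pentose phosphate pathway and so feeds the NADPH that reduces glutathione, rose from 6.28 ± 1.30 CPM to 18.5 ± 4.33 CPM (log2 fold change 1.54, adjusted p = 0.00699, limma; 0.0523 without WT replicate 2). Ggct, which breaks gamma-glutamyl peptides, fell from 28.4 ± 4.35 CPM to 10.3 ± 2.61 CPM (log2 fold change -1.49, adjusted p = 0.0108, limma; 0.0535 without WT replicate 2). Gpx1, the glutathione peroxidase of the cytosol, fell from 1005 ± 147 CPM to 604 ± 52.5 CPM (log2 fold change -0.73, adjusted p = 0.0252, limma), with an adjusted p of 0.0548 to 0.128 without replicate 1 or 2 of WT or ALAS1/2-KO replicate 3 or 4. Cbs, which sends homocysteine towards cysteine and itself carries haem, fell from 424 ± 47.7 CPM to 229 ± 56.5 CPM (log2 fold change -0.91, adjusted p = 0.0358, limma). The Cbs call was lost, at 0.0703 to 0.153, without any 1 of the WT libraries or without ALAS1/2-KO replicate 3 or 4. Gclc, the catalytic subunit of the enzyme that commits cysteine to glutathione and named after its values were seen, was not called at 145 ± 38.1 CPM and 95.0 ± 6.80 CPM.

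The genes that handle glutathione conjugates after the transferase step gave 4 that rose and 0 that fell of 17, with a median of -0.13, so the sign of the median was not that of the calls. Abcc2, the pump that carries conjugates into bile, rose from 317 ± 6.64 CPM to 522 ± 43.8 CPM (log2 fold change 0.71, adjusted p = 0.00979, limma; 0.0713 without WT replicate 2). Kyat1, a cysteine conjugate beta-lyase, rose from 112 ± 5.56 CPM to 182 ± 29.6 CPM (log2 fold change 0.69, adjusted p = 0.0303, limma), with an adjusted p of 0.0613 to 0.12 without any 1 of the WT libraries or ALAS1/2-KO replicate 3. Nat8f1, of the family that acetylates cysteine conjugates, rose from 43.4 ± 6.32 CPM to 80.0 ± 18.1 CPM (log2 fold change 0.87, adjusted p = 0.0327, limma), with 0.0593 to 0.151 without any 1 of the WT libraries or ALAS1/2-KO replicate 3 or 4. Anpep, an aminopeptidase of the cell surface, rose from 85.8 ± 4.80 CPM to 120 ± 10.5 CPM (log2 fold change 0.49, adjusted p = 0.0355, limma), and its call held in 1 of the 7 fits that left out a library, with 0.0596 to 0.128 in the other 6, those without any 1 of the WT libraries or ALAS1/2-KO replicate 2, 3 or 4.

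Of NRF2 and its targets outside the transferases, 6 of 27 rose and 0 fell, with a median of 0.13. Of the 27, 15 had positive and 12 negative log2 fold changes. Nfe2l2, which encodes NRF2 itself, was named after its values were seen. It rose from 60.5 ± 4.8 CPM to 86.1 ± 7.33 CPM (log2 fold change 0.51, adjusted p = 0.0344, limma). Its adjusted p was 0.0732 to 0.109 without any 1 of the WT libraries or ALAS1/2-KO replicate 3 or 4. Ces2g, a carboxylesterase, rose from 37.9 ± 2.12 CPM to 72.0 ± 8.06 CPM (log2 fold change 0.92, adjusted p = 0.00503, limma). Ephx1, the microsomal epoxide hydrolase, rose from 174 ± 33.5 CPM to 448 ± 75.8 CPM (log2 fold change 1.37, adjusted p = 0.00551, limma). Both were called with each library left out. Cbr1, a carbonyl reductase, rose from 54.1 ± 2.12 CPM to 85.1 ± 9.27 CPM (log2 fold change 0.65, adjusted p = 0.0188, limma), with 0.0609 without WT replicate 1 and 0.11 without WT replicate 2. G6pdx, given above, is in this list too, as is Pgd, the other supply gene that rose (log2 fold change 0.55, adjusted p = 0.0459, limma), with 0.0871 to 0.201 without any 1 of the WT libraries or ALAS1/2-KO replicate 3 or 4. Pgd, the next dehydrogenase of the pentose phosphate pathway, was named after its values were seen. Nqo1, a quinone reductase and a common readout of NRF2, was named after its values were seen: it was at 4.36 ± 1.11 CPM in WT and at 7.22 ± 1.72 CPM in ALAS1/2-KO, with an adjusted p of 0.111 (limma). Other targets of this list, also named after their values were seen, went the other way and were not called. On the log2 scale, Gclc was at -0.57, Hmox1 at -0.53, Gsr at -0.20, Gclm at -0.07 and Txnrd1 at -0.03.

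In the list of CAR, PXR and their targets 10 of 35 rose and 5 fell, with a median of 0.17. Of the 10, Ephx1 and Abcc2 are counted in the lists above too. Cyp2b10, the classical CAR target, rose from 11.1 ± 2.60 CPM to 96.9 ± 13.6 CPM (log2 fold change 3.13, adjusted p = 0.000114, limma). Cyp2c55, a cytochrome P450, rose from 2.26 ± 0.35 CPM to 10.7 ± 1.33 CPM (log2 fold change 2.21, adjusted p = 0.000781, limma). The carboxylesterases Ces1g, from 201 ± 5.78 CPM to 497 ± 49.2 CPM, and Ces2a, from 202 ± 41.2 CPM to 695 ± 70.8 CPM, rose by 1.30 and 1.79 on the log2 scale. All 4 were called with each library left out. The 5 that fell, 4 of them named after their values were seen, were Abcb1a, a drug efflux pump, at -1.45 on the log2 scale, Cyp2a5 at -1.35, also a pericentral gene and given below, Cyp2c38 at -1.25, Ugt2b36, a glucuronosyltransferase, at -1.002, and Aldh1a1, an aldehyde dehydrogenase, at -0.97. The adjusted p (limma) of Abcb1a was 0.0593 to 0.118 without any 1 of the WT libraries or ALAS1/2-KO replicate 2 or 3, and that of Ugt2b36 0.0556 to 0.129 without any 1 of the WT libraries or ALAS1/2-KO replicate 3. That of Cyp2c38 was 0.0518 to 0.184 without replicate 2 or 3 of WT or 2, 3 or 4 of ALAS1/2-KO, and that of Aldh1a1 0.0602 to 0.178 in every fit without a library except that without ALAS1/2-KO replicate 1. The log2 fold change of Gstm3 lies between those of Ces1g and Ces2a. So do those of G6pdx, at 1.54, and of the periportal gene Cyp2f2, at 1.57, which are not in this list. A shared regulator was not tested.

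Liver enzymes are zoned between the portal and the central vein, and several transferases are known to be higher near the central vein. Pericentral genes gave 0 that rose and 3 that fell of 22, with a median of -0.55 and 17 of 22 negative. Lgr5, a receptor of the innermost pericentral cells, fell from 3.48 ± 0.84 CPM to 1.33 ± 0.35 CPM (log2 fold change -1.35, adjusted p = 0.0355, limma), with 0.0609 to 0.179 without any 1 of the WT libraries or ALAS1/2-KO replicate 3 or 4. Cyp2a5, a cytochrome P450, fell from 199 ± 45.9 CPM to 80.1 ± 27.9 CPM (log2 fold change -1.35, adjusted p = 0.0373, limma), with 0.0531 to 0.162 without any 1 of the WT libraries or ALAS1/2-KO replicate 2 or 3. Lect2, a secreted chemotactic factor, fell from 83.2 ± 15.6 CPM to 48.3 ± 8.95 CPM (log2 fold change -0.79, adjusted p = 0.0406, limma), and 6 of the 7 fits without a library, all but that without ALAS1/2-KO replicate 1, gave 0.0708 to 0.179.

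Periportal genes gave 3 that rose and 0 that fell of 22, with a median of 0.25. Cyp2f2, a periportal cytochrome P450, rose from 431 ± 44.6 CPM to 1292 ± 271 CPM (log2 fold change 1.57, adjusted p = 0.00338, limma) and was called with each library left out. Pigr, the receptor that carries immunoglobulin A into bile, rose from 978 ± 71.5 CPM to 1552 ± 156 CPM (log2 fold change 0.66, adjusted p = 0.022, limma), with 0.0537 to 0.119 without replicate 1 or 2 of WT or ALAS1/2-KO replicate 4. Hsd17b6, a steroid dehydrogenase, rose from 29.9 ± 11.5 CPM to 108 ± 39.5 CPM (log2 fold change 1.83, adjusted p = 0.0353, limma), with 0.0696 to 0.153 without replicate 1 or 2 of WT or ALAS1/2-KO replicate 2, 3 or 4. The part of zonation in the values of the mu class was not tested. Neither was the part of the other-cell markers given next.

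**Figure D5:**
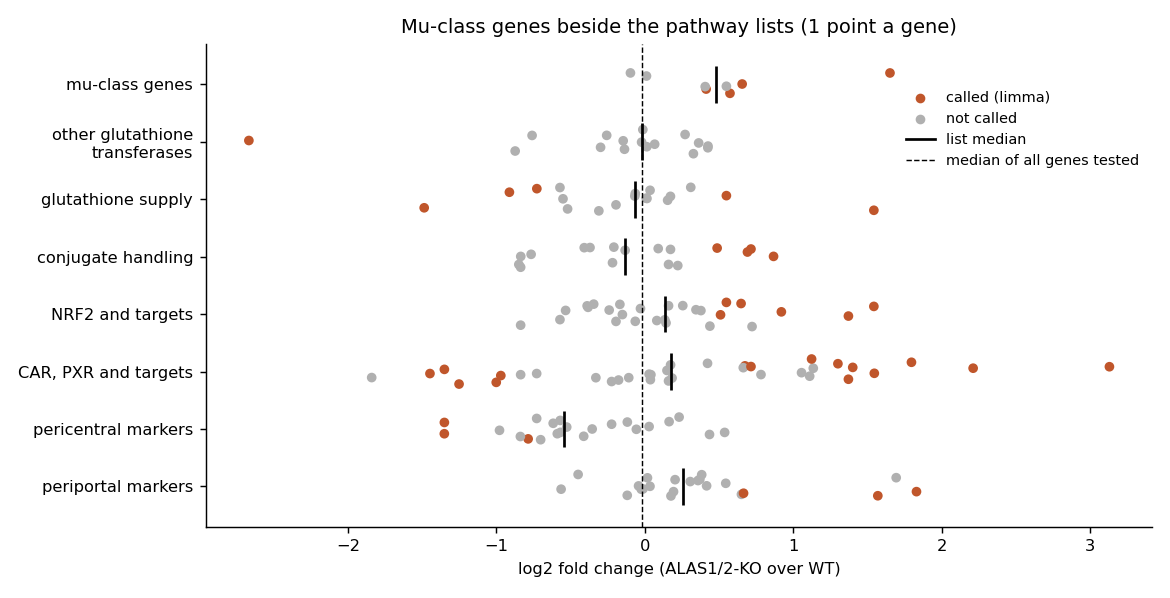
Log2 fold change of ALAS1/2-KO over WT (horizontal axis) of each tested gene of the mu class and of the 7 pathway and zonation lists (rows, with points spread vertically so that they can be seen). Orange points were called by limma, grey ones not; black bars are list medians (0.48 for the mu class, which was selected on this contrast, -0.02 for other glutathione transferases) and the dashed line is the median of all genes, -0.02.

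Markers of other liver cells were mostly not called. Their pooled sum was low in ALAS1/2-KO replicates 1 and 2 only, but this did not hold for each cell type. The endothelial and stellate sums of ALAS1/2-KO replicate 4 were also below every WT library. Bile duct and lymphoid and erythroid sums were below WT in every ALAS1/2-KO library. On the deposited scale, all 15 endothelial markers had negative log2 fold changes, with a median of -1.02 and sums of 537 to 648 CPM in WT against 119 to 546 CPM in ALAS1/2-KO, although 0 were called. Of the Kupffer cell and myeloid markers, 0 of 17 were called, with a median of -0.58 and sums of 1139 to 1532 CPM against 282 to 1776 CPM. Of the stellate cell markers, 0 of 13 were called, with a median of -1.25 and sums of 214 to 372 CPM against 74.4 to 252 CPM. Of the 10 bile duct markers 3 were tested and 1 fell, Spp1 (osteopontin), from 13.9 ± 2.95 CPM to 2.18 ± 1.02 CPM (adjusted p = 0.0076, limma; 0.0535 without WT replicate 2), and the 3 summed to 24.4 to 33.0 CPM against 12.2 to 19.8 CPM. Of the 15 lymphoid and erythroid markers 8 were tested and 2 fell, with a median of -2.10 and sums of 20.5 to 48.6 CPM against 4.35 to 11.4 CPM. No tested marker was at 0 reads in any library. The most abundant of these markers, Cd5l of Kupffer cells, was at 267 ± 54.3 CPM in WT, below Gstm1 in every library. Its log2 fold change of -0.29 turned to 0.66, past the test, without ALAS1/2-KO replicates 1 and 2. With ALAS1/2-KO replicates 1 and 2 left out, the summed Gstm level still differed, by 0.55 on the log2 scale against 0.62 with all libraries, while the count of members called went from 4 to 1, Gstm3.

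Finally, the genes whose levels over the 7 libraries were most like those of Gstm1 and of Gstm3 were listed, among the 8781 genes outside the family that averaged 5 CPM or more. For Gstm1 they were Hmga1 (r 0.97), Tob2 (0.97), Cox10 (0.97), Kyat1 (0.97) and Mid1ip1 (0.96). For Gstm3 they were Cyp3a13 (0.99), Pla1a (0.99), Josd2 (0.99), Slc44a3 (0.99) and F10 (0.99). Kyat1 is also in the list of conjugate handling. Slc44a3, a choline transporter-like protein, was at 8.63 ± 0.62 CPM in WT and at 22.5 ± 3.92 CPM in ALAS1/2-KO, the fold nearest to that of Gstm3 among these 5. These r values describe 7 points in 2 groups that share their scaling, and any gene that differs strongly between the groups scores high on them.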

How the data were processed

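Hepatocyte RNA was taken up in Trizol and made into TruSeq libraries, per the labels' protocols. Adapters were trimmed with cutadapt and reads aligned with HISAT2 to build mm10, per the submitters' processing notes. The sources used here give no versions, counter or annotation. The authors deposited log2 CPM values with a small prior. Taken off the log2 scale, minus a floor of 0.0676 CPM, they were whole multiples of 1 read (0.0293 to 0.0522 CPM) within 0.01 reads for 99.99% to 100% of values, which gave the reads. CPM in the text has the floor subtracted, and log2 fold changes include the prior.

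Groups came from titles and genotype labels. Genes that reached 1 CPM in 3 or more libraries were fitted with limma 3.58.1 (trend, robust) in R 4.3.3, two-sided, with Benjamini-Hochberg adjustment over 12105 genes; an adjusted p under 0.05 is a call. Nothing in the labels makes the replicates separate mice, so p-values measure the spread between libraries. The fit was tested on simulated data. The members and the gene lists were chosen with earlier results of these data known.

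Named were all members, Alas1, Alas2, tested genes within 300 kb, up to 4 called genes of smallest p per pathway list (otherwise the 2 most abundant), the 5 genes of highest r with Gstm1 and with Gstm3, and from each marker list the most abundant 2, of which those with a bearing are printed. The result of 1 neighbouring gene is not reported here. Identities, windows and motifs were computed from GENCODE M21 transcripts and RefSeq promoters (GRCm38.p6). Alternatives were 2 pseudocounts, 2 filters, 4 scalings, 3 variance models, a replicate block and each library left out. Leaving out ALAS1/2-KO replicates 1 and 2 together was added after seeing the data.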

Additional observations from a re-analysis of the deposited data

How the results depend on the processing

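Over 20 other settings the log2 fold change of Gstm3 ran from 1.42 to 1.98 and it was called in all. Calls of members describe the processing only, since the family was selected on this contrast. Gstm1, Gstm2-ps1, Gstm4, Gstm5 and Gstm7 stayed positive in all 20, while Gstm2 was positive in 3 and Gstm6 in 12. Without 1 library, 100 to 802 genes, 1 to 2 members and 9 to 37 pathway genes were called, against 617, 4 and 32. The replicate block, which gives no weight to ALAS1/2-KO replicate 4, left 72 genes, 1 member (Gstm3) and 6 pathway genes; same-numbered libraries deviated together with r of -0.03, 0.05 and 0.18, and not every library correlated best with its own number, so the numbers were not taken as pairs. CPM rescaled to the listed reads called 2735 genes, 6 members and 54 pathway genes. It moved Gstm1 to 0.99, Gstm2 to 0.24, Gstm2-ps1 to 0.91, Gstm3 to 1.98, Gstm4 to 0.75, Gstm5 to 0.88, Gstm6 to 0.34, Gstm7 to 0.74 and the summed log2 ratio to 0.95, beside a shift of all genes to 0.32. Limma without trend or robust moderation called 355 genes, 1 member and 19 pathway genes. Array weights called 2001 genes, 5 members and 53 pathway genes. Scaling that left out the 20 most abundant genes and mitochondrial ones left 1 member called, upper quartile scaling 2, and quantile normalization and voom 3 each. A pseudocount of 5 CPM gave 0.34 for Gstm5. Without ALAS1/2-KO replicates 1 and 2, 1130 genes and 1 member were called and Gstm7 was at 0.13. Quantile normalization turned Alb to 0.28. The cause was not tested. Depth limits Gstm5 and Gstm2-ps1 most, at 146 and 161 reads in the shallowest library.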
